A study of Mus musculus with 60 samples.

Results

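Calf muscle of Largemyd mice was compared with calf muscle of C57Bl/6 mice at 21 days of age. The comparison uses the 10 arrays labelled with either lineage at that age, 5 per lineage, out of 60 arrays in the series. The series covers C57Bl/6, Largemyd, Dmdmdx and the double mutant Dmdmdx/Largemyd at 21 days, 3 months and 6 months, with 5 male animals in each of 12 groups. The animals were labelled as untreated, each gave total RNA for 1 array of the type Affymetrix Mouse Gene 1.0 ST, and technical replicates were not run. The genetic background of the Largemyd animals and their relation to the C57Bl/6 animals are not given in the sources used here, so the myd allele and other strain differences cannot be told apart. The myd allele is present in every cell, so a change in fibres and a change in other cells of the muscle cannot be told apart either.

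Dystroglycan links the cytoskeleton of a muscle fibre, through dystrophin, to laminin in the basement membrane around it. Its extracellular subunit binds laminin through a long sugar chain, which Largemyd mice fail to build, and their fibres then break down and are replaced. A dying fibre is cleared by macrophages while satellite cells divide, express myogenic factors, fuse and form a new fibre that first makes embryonic and neonatal forms of the contractile proteins.

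Expression is given on the log2 scale of the deposited values, and a difference is the Largemyd mean minus the C57Bl/6 mean with its standard error (SE, n = 5 animals per group), estimated from the spread within all 12 groups. A gene is said to have risen or fallen only where limma's adjusted p over 19938 genes was below 0.05. The tissue label was checked with 8 proteins of adult fast muscle, Ckm, Acta1, Myh4, Myh1, Tnnt3, Mylpf, Pvalb and Atp2a1. They read 12.38 to 13.95 on the 10 arrays, at or above the 99.4th percentile of all genes.

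Some arrays stood apart within their group. The r over all genes was 0.992 to 0.996 among C57Bl/6 arrays 1, 3, 4 and 5, and 0.974 to 0.977 between each of them and C57Bl/6 array 2. Largemyd arrays 1 and 2 correlated at 0.994 with each other and at 0.974 to 0.985 with Largemyd arrays 3 to 5. The mean of 27 B cell and lymph node markers was 9.24 log2 on a scale where the other 4 C57Bl/6 arrays read 6.11 to 6.32. It was 7.71 and 7.40 in Largemyd arrays 1 and 2, and 6.23 to 6.31 in Largemyd arrays 3 to 5. Counts of most gene groups are therefore also given without C57Bl/6 array 2 and Largemyd arrays 1 and 2, called here the smaller set of 7 arrays, a choice made after the values were seen. The arrays of all other groups stayed in that fit, also where Largemyd is set against Dmdmdx or ages are set against each other. The labels name no batch for the arrays. In the titles the animal number is followed by E for Largemyd arrays 1 and 2 and by D for arrays 3 to 5. The meaning of these letters is not given.

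Of 19938 genes, 4589 changed, which is 23%. Of these, 1972 rose (9.89% of all genes) and 2617 fell (13.1%). A change of at least 2-fold was found for 326 genes (1.64%), of which 263 rose and 63 fell. With array medians subtracted the split was 1542 rises and 3298 falls. The 5 Largemyd arrays lay wholly above or below the 5 C57Bl/6 arrays for 13.5% of genes, above for 5.16% and below for 8.34%. The gene groups below are read against these shares. The median log2 difference over all genes was -0.01.

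**Figure D1:**
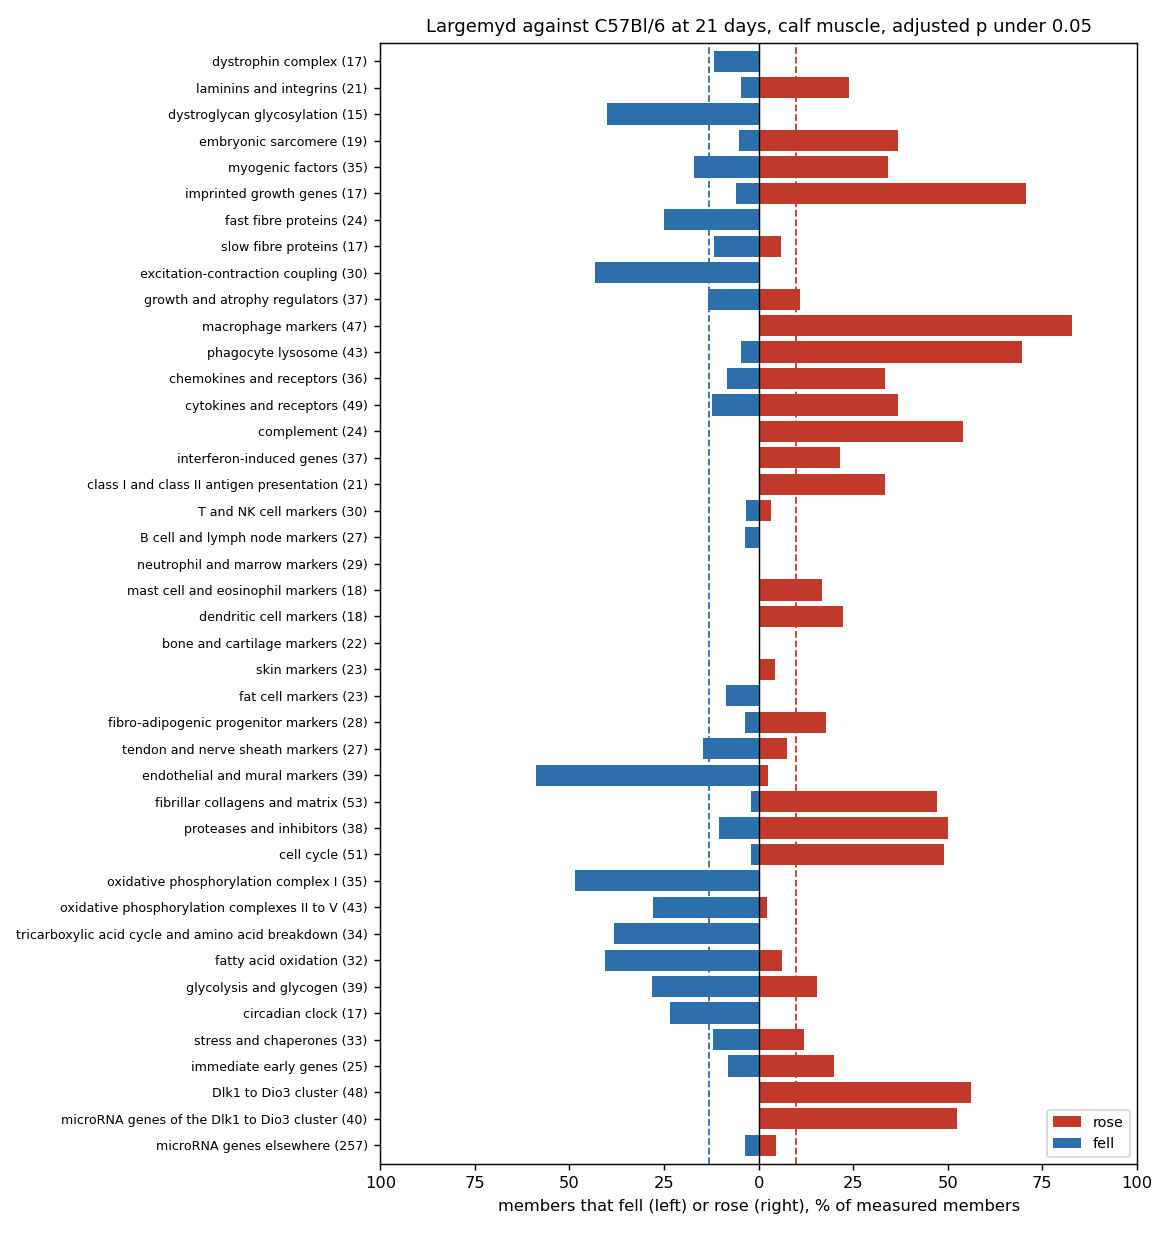
Percentage of the measured members of each gene group that rose (right, red) or fell (left, blue) in Largemyd against C57Bl/6 calf muscle at 21 days, with 5 animals per group and the number of measured members in brackets. Dashed lines mark the shares over all 19938 genes, 9.89% and 13.1%, and macrophage, imprinted and lysosome genes reach farthest to the right while endothelial, complex I and excitation-contraction genes reach farthest to the left.

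Calls among the transcripts of the dystrophin-associated complex were no more frequent than among all genes. Of 17 measured members 0 rose and 2 fell (11.8%), where 9.89% of all genes rose and 13.1% fell. The median difference was -0.08. All 5 Largemyd arrays lay below all 5 C57Bl/6 arrays for 4 of the 17 members, called or not, beside 8.34% of all genes. Dmd, which encodes dystrophin, differed by -0.12 ± 0.18 (adjusted p = 0.69), and Dag1, which encodes dystroglycan, by -0.12 ± 0.10 (adjusted p = 0.47). Utrn, which encodes the dystrophin relative utrophin, differed by 0.04 ± 0.07 (adjusted p = 0.77). None of these 3 genes passed, although the Largemyd arrays of Dag1 lay narrowly below all C57Bl/6 arrays. Sspn encodes sarcospan, a small membrane protein of the complex. It read 10.06, 9.91, 10.13, 9.90 and 10.02 in C57Bl/6 arrays 1 to 5 and 9.11, 8.90, 9.54, 9.54 and 9.55 in Largemyd arrays 1 to 5. All Largemyd arrays were lower, and Sspn fell, with a difference of -0.68 ± 0.16 (adjusted p = 0.00085). Sgca, which encodes alpha-sarcoglycan, differed by -0.47 ± 0.17 (adjusted p = 0.039) with no overlap of the arrays. The call of Sgca was lost without C57Bl/6 array 1, 3 or 5, or Largemyd array 3, 4 or 5, or after a second quantile normalization (adjusted p = 0.051 to 0.11). Nos1, the neuronal nitric oxide synthase that docks on the complex, differed by -0.36 ± 0.21 (adjusted p = 0.23) and did not pass. In the smaller set of 7 arrays 0 members were higher and 2 lower.

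Several enzymes that build the sugar chain of dystroglycan fell. Of 15 measured genes 6 fell and 0 rose, with a median difference of -0.17. In the smaller set of 7 arrays 6 were lower and 2 higher. B3galnt2 adds an N-acetylgalactosamine to the core of the chain. It read 9.32, 9.03, 9.42, 9.49 and 9.42 in C57Bl/6 and 8.36, 8.43, 8.97, 8.82 and 8.77 in Largemyd, with every Largemyd array below every C57Bl/6 array and a difference of -0.66 ± 0.12 (adjusted p = 4.6e-05). Pomt1 and Pomt2 together attach the first mannose. Pomt1 differed by -0.49 ± 0.08 (adjusted p = 7.3e-06) and Pomt2 by -0.28 ± 0.07 (adjusted p = 0.00098), again with no overlap of the arrays. B4gat1 primes the chain for its repeating part and differed by -0.31 ± 0.09 (adjusted p = 0.0064). Dolk, which makes the lipid carrier of the mannose, differed by -0.26 ± 0.08 (adjusted p = 0.011). Pomgnt2, which extends the mannose, differed by -0.25 ± 0.09 (adjusted p = 0.043). The call of B4gat1 was lost without both Largemyd arrays 1 and 2 (adjusted p = 0.067). The call of Pomgnt2 was lost without C57Bl/6 array 1, 3, 4 or 5, or Largemyd array 1, 3, 4 or 5, or both Largemyd arrays 1 and 2, or C57Bl/6 array 2 with Largemyd array 1, or in the smaller set of 7 arrays, or in a fit of these 10 arrays alone (adjusted p = 0.052 to 0.13). The differences in this group are all below 2-fold. Cells of the muscle were measured in bulk, so fewer cells of one kind and less RNA per cell cannot be told apart, here and below.

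Some genes of the laminin, integrin and basement membrane group rose, but the calls of Lama2, Itga7 and Itgb1 were lost in some settings. Of 21 laminins, integrins and basement membrane proteins, 5 rose (23.8%) and 1 fell (4.76%), beside 9.89% and 13.1% of all genes. The smaller set of 7 arrays had 3 higher and 0 lower. Lama2 encodes the main laminin chain of the adult muscle basement membrane. Lama2 read 10.29, 9.93, 10.31, 10.21 and 10.35 in C57Bl/6 and 10.96, 10.94, 10.79, 10.64 and 10.42 in Largemyd, without overlap, and its difference was 0.53 ± 0.14 (adjusted p = 0.0027). The call of Lama2 was lost without both Largemyd arrays 1 and 2, or in the smaller set of 7 arrays (adjusted p = 0.056 to 0.13). Itga7, the laminin receptor subunit of adult fibres, differed by 0.47 ± 0.17 (adjusted p = 0.038). The call of Itga7 was lost without C57Bl/6 array 1, 2, 4 or 5, or Largemyd array 1, 4 or 5, or C57Bl/6 array 2 with Largemyd array 1, or in the smaller set of 7 arrays, or with array medians subtracted (adjusted p = 0.053 to 0.13). Itgb1, its partner, differed by 0.26 ± 0.07 (adjusted p = 0.0071). The call of Itgb1 was lost without C57Bl/6 array 2 with Largemyd array 1, or in a fit of these 10 arrays alone (adjusted p = 0.054 to 0.055). Itga5, a fibronectin receptor subunit, rose by 0.57 ± 0.13 (adjusted p = 0.0011) and Bgn, which encodes the matrix proteoglycan biglycan, by 0.50 ± 0.10 (adjusted p = 0.00014). Itga6, another laminin receptor subunit, differed by -0.40 ± 0.10 (adjusted p = 0.0029). The call of Itga6 was lost without both Largemyd arrays 1 and 2, or in the smaller set of 7 arrays (adjusted p = 0.11).

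Contractile proteins of embryonic and newborn muscle were among the largest rises. Myh3, the embryonic myosin heavy chain, read 7.02, 6.54, 7.51, 7.22 and 7.29 in C57Bl/6 arrays 1 to 5 and 10.53, 10.18, 9.85, 10.03 and 11.26 in Largemyd arrays 1 to 5. It was high in every Largemyd array, highest in array 5, and rose by 3.26 ± 0.36 (adjusted p = 1.4e-09), or 9.55-fold. Myh8, the neonatal myosin heavy chain, read 8.22, 7.62, 8.19, 8.13 and 7.84 in C57Bl/6 and 11.10, 10.90, 10.31, 10.41 and 11.12 in Largemyd. All 5 Largemyd arrays were higher, and Myh8 rose by 2.77 ± 0.25 (adjusted p = 3.6e-12). Tnnt2 encodes the cardiac troponin T, which skeletal muscle makes before birth and during repair. It read 8.28, 8.26, 8.44, 8.13 and 8.16 in C57Bl/6 and 11.52, 11.21, 11.02, 11.09 and 12.03 in Largemyd, a rise of 3.12 ± 0.30 (adjusted p = 2.4e-11), and the C57Bl/6 arrays varied by far less than the gap. Myl4, the embryonic essential light chain, read 10.76, 10.29, 10.71, 10.35 and 10.43 and 12.98, 12.70, 12.76, 12.49 and 13.16. The groups were far apart on this gene of high level, and it rose by 2.31 ± 0.15 (adjusted p = 1.5e-16). Ankrd1 encodes a stretch-induced protein of the sarcomere and nucleus. It read 7.57, 7.20, 7.71, 7.96 and 7.34 in C57Bl/6 and 10.44, 10.60, 10.25, 9.96 and 10.60 in Largemyd, with no overlap and a rise of 2.81 ± 0.25 (adjusted p = 3.2e-12).

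None of the adult myosin heavy chains passed. Myh1 differed by -0.05 ± 0.11 (adjusted p = 0.82), Myh2 by -0.39 ± 0.21 (adjusted p = 0.18), Myh4 by -0.15 ± 0.09 (adjusted p = 0.23) and Myh7 by -0.09 ± 0.42 (adjusted p = 0.92). These are the adult fast 2X, fast 2A, fast 2B and slow forms. For Myh4 all Largemyd arrays lay below all C57Bl/6 arrays, though the nearest values of both groups round to 13.22. Myh2 passed in a fit of these 10 arrays alone (adjusted p = 0.042). Mybph, a myosin-binding protein of young fibres listed with the embryonic genes, fell: it read 10.85, 10.87, 10.86, 10.77 and 10.77 in C57Bl/6 and 9.71, 9.77, 9.91, 9.51 and 10.46 in Largemyd, a difference of -0.95 ± 0.26 (adjusted p = 0.0057). Over the 19 members of this group 7 rose and 1 fell, and in the smaller set of 7 arrays 5 were higher and 1 lower. The median difference of the whole group was 0.24.

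**Figure D2:**
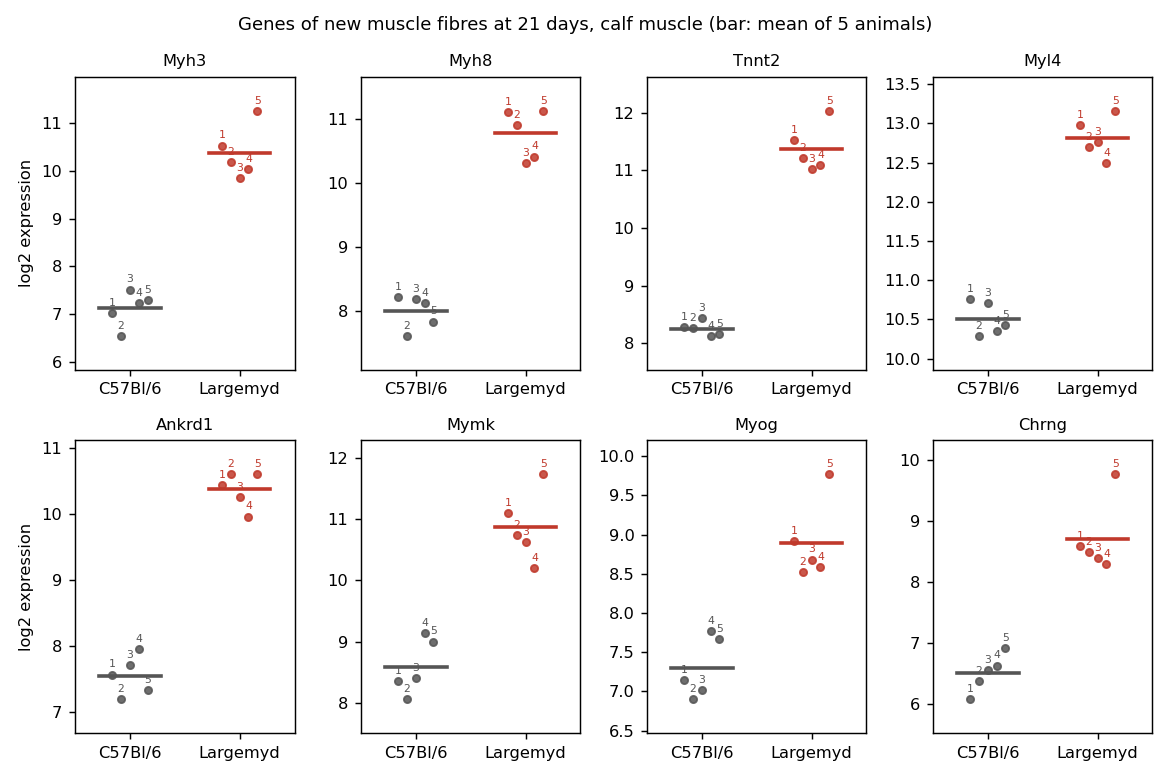
Log2 expression of 8 genes of new fibres in each C57Bl/6 array (grey) and Largemyd array (red) at 21 days, with the group mean as a bar and the array number beside each point. All 5 Largemyd arrays lie above all 5 C57Bl/6 arrays for each gene, and Mymk shows the widest range within C57Bl/6.

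Genes of myoblast differentiation and fusion rose, while Pax7 and Myod1 did not pass. Mymk encodes myomaker, the membrane protein that drives myoblast fusion. It read 8.35, 8.06, 8.40, 9.14 and 9.0 in C57Bl/6 and 11.09, 10.74, 10.62, 10.20 and 11.73 in Largemyd, rising by 2.29 ± 0.33 (adjusted p = 6e-07), with C57Bl/6 arrays 4 and 5 the highest controls and still below every Largemyd array. Myog, the transcription factor of differentiating myoblasts, read 7.14, 6.90, 7.02, 7.77 and 7.67 in C57Bl/6 and 8.92, 8.52, 8.68, 8.58 and 9.77 in Largemyd. Every Largemyd array was higher and Myog rose by 1.59 ± 0.27 (adjusted p = 9.3e-06). Pax7, the marker of satellite cells, differed by 0.17 ± 0.11 (adjusted p = 0.27) and Myod1, the early commitment factor, by 0.35 ± 0.23 (adjusted p = 0.28). Calcr, a receptor of resting satellite cells, differed by -0.35 ± 0.09 (adjusted p = 0.003). Ncam1, an adhesion protein of new and denervated fibres, rose by 1.38 ± 0.20 (adjusted p = 5e-07). Of 35 myogenic genes 12 rose and 6 fell, and in the smaller set of 7 arrays 9 were higher and 5 lower.

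Subunits of the fetal acetylcholine receptor rose together. Chrng encodes the gamma subunit, which is replaced after birth by the epsilon subunit. It read 6.08, 6.37, 6.56, 6.63 and 6.92 in C57Bl/6 and 8.59, 8.49, 8.40, 8.29 and 9.77 in Largemyd, and rose by 2.20 ± 0.28 (adjusted p = 2.9e-08) with every Largemyd array higher. Chrna1, the alpha subunit, rose by 1.13 ± 0.24 (adjusted p = 0.00027) and Chrnd, the delta subunit, by 1.25 ± 0.19 (adjusted p = 1.9e-06). Chrne, the epsilon subunit, differed by -0.03 ± 0.21 (adjusted p = 0.95) and did not pass. Musk, the kinase that clusters the receptor, rose by 0.70 ± 0.22 (adjusted p = 0.018). The call of Musk was lost without Largemyd array 2, or both Largemyd arrays 1 and 2, or C57Bl/6 array 2 with Largemyd array 1, or in the smaller set of 7 arrays (adjusted p = 0.075 to 0.29).

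The promoters of the genes that rose most in these groups were read for short motifs, so that the letters can be seen beside the values. The windows are the 250 bases before the RefSeq start site on GRCm38.p6, in the direction of the gene. CAGCTG is an E-box of the kind that MyoD family factors bind, and CATTCC is the M-CAT box of TEAD factors, and both strands were searched. Of 13 genes looked for, 10 were in the promoter table, and the acetylcholine receptor genes, Myog, Mymk and Mymx were added after their values were seen. Of these genes, 3 held CAGCTG and 3 held CATTCC. Of 32851 mouse promoters, 13% held CAGCTG and 12.6% held CATTCC, so a match is a description of the letters and no more. The promoters of Tnnt2 (first listed start, chr1:135836084-135836333, plus strand), Ankrd1 (chr19:36119845-36120094, minus strand), Chrng (chr1:87205561-87205810, plus strand) and Chrna1 (chr2:73580339-73580588, minus strand) are printed because each holds a match and belongs to a gene that rose, by 3.12, 2.81, 2.20 and 1.13, with the motifs of either strand in capitals.
Tnnt2: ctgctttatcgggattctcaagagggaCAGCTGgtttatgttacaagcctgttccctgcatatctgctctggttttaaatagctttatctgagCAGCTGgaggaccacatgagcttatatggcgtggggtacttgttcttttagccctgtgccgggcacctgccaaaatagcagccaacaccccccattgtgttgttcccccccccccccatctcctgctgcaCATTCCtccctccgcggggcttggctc
Ankrd1: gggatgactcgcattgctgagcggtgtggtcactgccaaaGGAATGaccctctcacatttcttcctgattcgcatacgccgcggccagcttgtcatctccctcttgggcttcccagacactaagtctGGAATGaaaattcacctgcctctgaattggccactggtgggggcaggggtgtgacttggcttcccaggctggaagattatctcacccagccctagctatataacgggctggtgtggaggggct
Chrng: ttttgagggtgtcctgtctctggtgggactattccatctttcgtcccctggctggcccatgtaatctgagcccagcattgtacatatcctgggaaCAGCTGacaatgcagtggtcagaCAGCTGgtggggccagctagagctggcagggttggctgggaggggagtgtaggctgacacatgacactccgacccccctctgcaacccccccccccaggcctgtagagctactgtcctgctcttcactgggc
Chrna1: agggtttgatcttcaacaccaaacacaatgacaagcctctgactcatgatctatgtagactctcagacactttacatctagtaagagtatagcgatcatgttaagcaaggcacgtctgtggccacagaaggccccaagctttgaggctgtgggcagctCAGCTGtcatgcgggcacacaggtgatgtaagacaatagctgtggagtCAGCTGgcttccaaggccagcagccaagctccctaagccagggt
In Tnnt2 the E-boxes begin 223 and 157 bases before the start and the M-CAT box 27 bases before it. In Ankrd1 both M-CAT boxes lie on the opposite strand, 210 and 123 bases before the start. Chrng holds E-boxes 155 and 132 bases before the start, and Chrna1 holds them 92 and 44 bases before it. The remaining CATTCC match, 104 bases before the second listed start of Flnc, the gene of the actin cross-linker filamin C, is not printed.

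Imprinted genes that are most active before birth were higher in Largemyd muscle. Of 17 measured genes 12 rose and 1 fell, with a median difference of 0.50, and in the smaller set of 7 arrays 8 were higher and 0 lower. Dlk1 encodes a membrane protein of the Notch ligand family that is made by growing muscle. It read 9.53, 9.24, 9.59, 9.46 and 9.38 in C57Bl/6 arrays 1 to 5 and 11.34, 11.06, 10.85, 10.36 and 10.93 in Largemyd arrays 1 to 5. All Largemyd arrays were higher, array 1 most, and Dlk1 rose by 1.47 ± 0.18 (adjusted p = 1.1e-08). Peg10, a gene derived from a retroelement and needed for the placenta, rose by 1.47 ± 0.20 (adjusted p = 1.9e-07). Mest, which encodes a hydrolase-like protein of fetal mesoderm, rose by 1.30 ± 0.35 (adjusted p = 0.0045) with overlapping arrays. Peg3, a zinc finger gene, rose by 0.93 ± 0.17 (adjusted p = 3.5e-05). Igf2, the fetal growth factor, differed by 0.49 ± 0.21 (adjusted p = 0.083). Igf2 passed without Largemyd array 4, or after a second quantile normalization, or in a fit of these 10 arrays alone, or in a fit of the 20 arrays of 21 days (adjusted p = 0.0082 to 0.046). Ndn, which encodes necdin, was the 1 member that fell, with a difference of -0.44 ± 0.16 (adjusted p = 0.034). The call of Ndn was lost without C57Bl/6 array 1 or 3, or Largemyd array 1 or 2, or both Largemyd arrays 1 and 2, or C57Bl/6 array 2 with Largemyd array 1, or in the smaller set of 7 arrays, or after a second quantile normalization, or with array weights, or in a fit of these 10 arrays alone, or in a fit of the 20 arrays of 21 days (adjusted p = 0.062 to 0.5).

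Dlk1 lies at one end of an imprinted region that reaches to Dio3 and holds long non-coding RNAs, small nucleolar RNAs and many microRNA genes that are read from the maternal chromosome. The region was chosen for description after its values were seen. Dlk1, Meg3 and Rian of this region are also among the imprinted genes counted above, so the counts overlap. Of 103 genes that RefSeq places between both ends, 48 were measured. Of these 27 rose and 0 fell, where 9.89% of all genes rose, and in the smaller set of 7 arrays 25 were higher and 0 lower. Among the 40 microRNA genes of the region 21 rose, while among 257 microRNA genes elsewhere 12 rose and 9 fell. Without Largemyd array 5 these last counts were 19 and 5, and the falls numbered 3 without C57Bl/6 array 5 and 5 without C57Bl/6 array 4. Meg3, the long non-coding RNA of the region, read 10.46, 9.64, 10.42, 10.16 and 10.17 in C57Bl/6 and 11.50, 11.76, 11.06, 11.08 and 11.18 in Largemyd. Its arrays did not overlap, Largemyd arrays 1 and 2 were the highest, and it rose by 1.14 ± 0.20 (adjusted p = 1.7e-05). Rian, the host of small nucleolar RNAs, rose by 0.97 ± 0.20 (adjusted p = 0.00021) with overlapping arrays. Rtl1, a retroelement-derived gene read from the paternal chromosome and needed in fetal muscle, rose by 0.43 ± 0.12 (adjusted p = 0.0053), and Dio3, the deiodinase that inactivates thyroid hormone, differed by 0.41 ± 0.16 (adjusted p = 0.052). The call of Rtl1 was lost without both Largemyd arrays 1 and 2, or C57Bl/6 array 2 with Largemyd array 1, or in the smaller set of 7 arrays (adjusted p = 0.063 to 0.19). Dio3 passed without C57Bl/6 array 4 or 5, or Largemyd array 3, or in a fit of the 20 arrays of 21 days (adjusted p = 0.026 to 0.036).

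The 5 microRNA genes of the region with at least 2-fold rises are shown by the mature sequences that RefSeq gives for them, with the seed (bases 2 to 8) in capitals. The arrays were made from total RNA by a method for long transcripts, so a probe set for a microRNA gene reads its precursor or host transcript, and mature microRNAs were not measured.
miR-136-5p: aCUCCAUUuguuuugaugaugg
miR-136-3p: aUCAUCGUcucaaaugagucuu
miR-134-5p: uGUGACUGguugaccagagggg
miR-134-3p: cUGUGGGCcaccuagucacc
miR-382-5p: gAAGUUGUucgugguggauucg
miR-382-3p: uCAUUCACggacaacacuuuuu
miR-380-5p: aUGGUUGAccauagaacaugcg
miR-380-3p: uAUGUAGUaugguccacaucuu
miR-434-5p: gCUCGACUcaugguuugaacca
miR-434-3p: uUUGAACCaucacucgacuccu
No seed was shared among these. Among the 21 microRNA genes of the region that rose, the 3-prime products of Mir379 and Mir411 share the seed AUGUAAC. Genes that did not pass were not compared.
miR-379-3p: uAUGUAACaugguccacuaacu
miR-411-3p: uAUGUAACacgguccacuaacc
Mir136 read 4.82, 4.10, 4.73, 4.57 and 4.27 in C57Bl/6 and 6.69, 7.25, 5.48, 5.43 and 6.05 in Largemyd. Largemyd arrays 1 and 2 were highest, all 5 lay above the controls, and the rise was 1.69 ± 0.27 (adjusted p = 3.3e-06). Mir134 read 8.10, 7.53, 8.07, 7.93 and 7.92 and 9.70, 9.54, 9.20, 8.87 and 9.24, also without overlap, and rose by 1.40 ± 0.14 (adjusted p = 1.1e-10). Mir382 rose by 1.28 ± 0.19, Mir380 by 1.21 ± 0.19 and Mir434 by 1.06 ± 0.15 (adjusted p = 9.3e-07, 3.7e-06 and 2e-07). Mir379 rose by 0.53 ± 0.14 and Mir411 by 0.59 ± 0.13 (adjusted p = 0.0028 and 0.00032), both from levels near the bottom of the scale. Mir136, Mir380 and Mir434 also started low, with C57Bl/6 means of 4.5, 4.1 and 3.86. The call of Mir379 was lost in a fit of the 20 arrays of 21 days (adjusted p = 0.072).

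**Figure D3:**
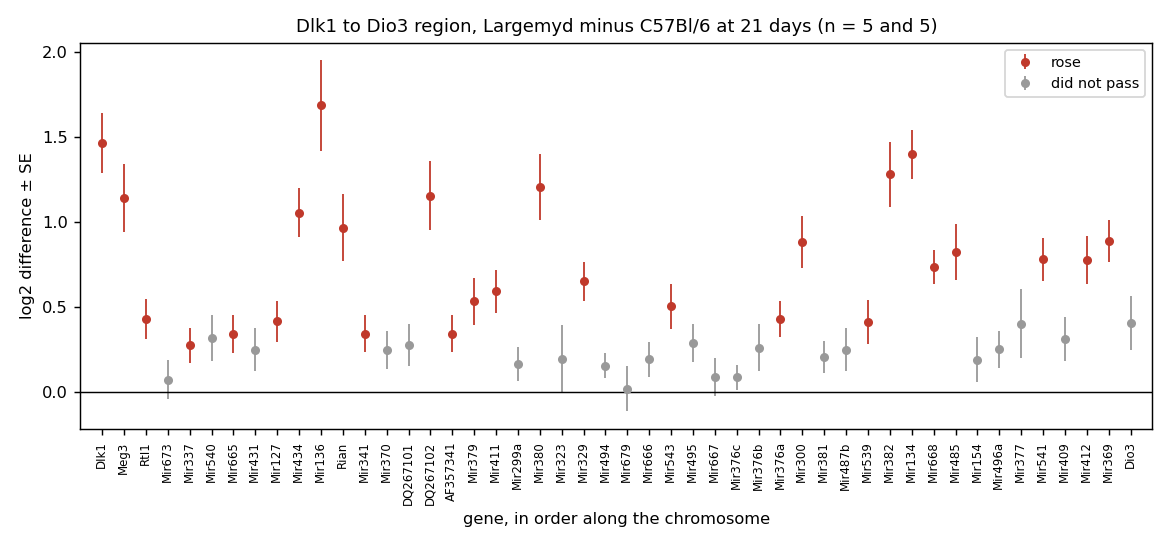
Log2 difference between Largemyd and C57Bl/6 muscle at 21 days, with its SE, for the 48 measured genes of the Dlk1 to Dio3 region in their order along the chromosome, with red for genes that rose and grey for the rest. The 27 genes that rose are spread over the whole region, and none fell.

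Macrophage genes had the largest share of rises of all gene groups described. Of 47 macrophage markers 39 rose and 0 fell, with a median difference of 1.38, and in the smaller set of 7 arrays 43 were higher with a median of 2.05. Cd68, a lysosomal membrane protein of macrophages, read 7.60, 8.55, 7.71, 7.63 and 7.79 in C57Bl/6 and 9.79, 9.62, 10.24, 11.17 and 10.89 in Largemyd. C57Bl/6 array 2 was the highest control, Largemyd arrays 4 and 5 were the highest of all, the groups did not overlap, and Cd68 rose by 2.48 ± 0.28 (adjusted p = 1.3e-09). Gpnmb, a glycoprotein of macrophages that have taken up debris, read 7.49, 6.97, 6.66, 6.61 and 7.18 and 9.68, 9.56, 9.87, 11.07 and 11.03. It rose by 3.26 ± 0.28 (adjusted p = 1.5e-12), again with arrays 4 and 5 highest. Lgals3, which encodes galectin-3, rose by 3.08 ± 0.26 (adjusted p = 1.4e-12) and Adgre1, which encodes the F4/80 antigen, by 1.50 ± 0.25 (adjusted p = 1.1e-05). Vsig4, the complement receptor of resident macrophages, read 4.66, 4.41, 4.65, 4.44 and 4.88 in C57Bl/6 and 8.11, 7.73, 7.47, 8.04 and 7.0 in Largemyd. In contrast to Cd68 and Gpnmb it was highest in Largemyd array 1 and lowest in Largemyd array 5, and it rose by 3.06 ± 0.32 (adjusted p = 1.9e-10). Mpeg1, a pore-forming protein of macrophages, rose by 3.04 ± 0.37 (adjusted p = 1.4e-08). It read 6.24, 8.66, 6.01, 5.61 and 5.79 in C57Bl/6 and 9.11, 8.67, 9.34, 10.31 and 10.09 in Largemyd, and C57Bl/6 array 2 came level with the lowest Largemyd array while the other controls were far below.

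Lysosomal genes of phagocytes rose as well. Of 43 measured genes 30 rose and 2 fell, and in the smaller set of 7 arrays the counts were 30 and 2. Atp6v0d2, a proton pump subunit of osteoclasts and macrophages, read 4.95, 4.88, 4.60, 4.79 and 4.91 in C57Bl/6 and 8.24, 7.75, 8.79, 9.0 and 9.83 in Largemyd. The control arrays were all near the bottom of the scale, and the rise of 3.90 ± 0.47 (adjusted p = 1.3e-08) was the second largest in the comparison. Ctss, which encodes the protease cathepsin S, rose by 2.72 ± 0.29 (adjusted p = 3.3e-10) with C57Bl/6 array 2 the highest control. Lgmn, which encodes the lysosomal protease legumain, rose by 1.65 ± 0.16 (adjusted p = 4.9e-11) and Ctsz, which encodes cathepsin Z, by 1.28 ± 0.16 (adjusted p = 1.9e-08).

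Several chemokines that attract monocytes rose. Of 36 chemokines and receptors 12 rose and 3 fell, and in the smaller set of 7 arrays 14 were higher and 3 lower. Ccl3 read 5.84, 6.31, 6.16, 6.26 and 6.13 in C57Bl/6 and 8.60, 8.54, 9.65, 10.26 and 10.09 in Largemyd, a rise of 3.29 ± 0.36 (adjusted p = 1e-09) without overlap. Ccl2, the main ligand of the monocyte receptor Ccr2, read 6.78, 6.56, 6.62, 6.53 and 6.68 in C57Bl/6 and 8.04, 7.95, 9.90, 10.87 and 9.87 in Largemyd. Largemyd arrays 3 to 5 were far above arrays 1 and 2, which still exceeded all controls, and Ccl2 rose by 2.69 ± 0.38 (adjusted p = 3.3e-07). Ccl7, another ligand of Ccr2, rose by 1.87 ± 0.39 (adjusted p = 0.00024), Ccl8 by 2.35 ± 0.38 (adjusted p = 4.2e-06) and Ccl6 by 2.13 ± 0.23 (adjusted p = 9.8e-10). Ccr2 itself rose by 1.19 ± 0.33 (adjusted p = 0.0055). The call of Ccr2 was lost without Largemyd array 4, or in a fit of these 10 arrays alone, or in a fit of the 20 arrays of 21 days (adjusted p = 0.053 to 0.1). Cxcl1, which attracts neutrophils, differed by -0.09 ± 0.11 (adjusted p = 0.62) and Ccl19, which attracts lymphocytes, by 0.03 ± 0.41 (adjusted p = 0.97), and neither passed. Cxcl12, the chemokine of stromal cells, fell, with a difference of -0.59 ± 0.17 (adjusted p = 0.0074), as did its scavenger receptor Ackr3 with -0.47 ± 0.13 (adjusted p = 0.0042).

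Cytokines, complement and growth factors of repair rose in part. Of 49 cytokines and receptors 18 rose and 6 fell (27 and 3 in the smaller set of 7 arrays). The falls numbered 2 without C57Bl/6 array 1 and 3 without C57Bl/6 array 3 or 5. Of 24 complement genes 13 rose and 0 fell (13 and 0). Hgf, the growth factor that activates satellite cells, read 5.62, 5.91, 5.62, 5.65 and 5.46 in C57Bl/6 and 6.62, 6.63, 6.95, 7.50 and 7.44 in Largemyd. All Largemyd arrays were higher, and Hgf rose by 1.37 ± 0.14 (adjusted p = 3.5e-10). C3ar1, the receptor for a fragment of complement C3, rose by 1.97 ± 0.26 (adjusted p = 1e-07), and C1qb, a subunit of the first complement component, by 1.65 ± 0.17 (adjusted p = 1e-10). Pdgfc, a ligand of the receptor on fibro-adipogenic cells, rose by 1.0 ± 0.11 (adjusted p = 8.8e-10). Tgfb1, the profibrotic growth factor, differed by 0.39 ± 0.20 (adjusted p = 0.16), with 8.11, 9.35, 8.11, 8.31 and 8.34 in C57Bl/6 and 8.47, 8.38, 8.97, 9.10 and 9.25 in Largemyd. C57Bl/6 array 2 was the highest of all 10 arrays for this gene. Tgfb1 passed without C57Bl/6 array 2, or both Largemyd arrays 1 and 2, or C57Bl/6 array 2 with Largemyd array 1, or in the smaller set of 7 arrays, or with array weights (adjusted p = 0.00085 to 0.021).

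Antigen presentation genes were read with array 2 of C57Bl/6 standing far above its group. Of 21 measured genes 7 rose and 0 fell, and of 37 interferon-induced genes 8 rose and 0 fell. In the smaller set of 7 arrays 12 antigen presentation genes and 17 interferon-induced genes were higher and none of either was lower. Rises among the antigen presentation genes numbered 13 without C57Bl/6 array 2, 3 without C57Bl/6 array 5, and 4 without C57Bl/6 array 1 or Largemyd array 5. H2-Aa, a class II chain, read 8.60, 11.38, 8.55, 8.94 and 8.73 in C57Bl/6 and 11.26, 10.79, 10.99, 11.02 and 10.78 in Largemyd. Without C57Bl/6 array 2 the groups are separate, with it they overlap, and the difference over all arrays was 1.73 ± 0.29 (adjusted p = 1.1e-05). Cd74, the invariant chain of class II, differed by 1.56 ± 0.30 (adjusted p = 7.7e-05). The call of Cd74 was lost in a fit of these 10 arrays alone (adjusted p = 0.058). Irf8, a factor of monocytes and B cells, differed by 1.12 ± 0.28 (adjusted p = 0.0021). The call of Irf8 was lost in a fit of these 10 arrays alone (adjusted p = 0.074). Mx2, an antiviral GTPase, rose by 0.91 ± 0.17 (adjusted p = 6.3e-05) from low levels.

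H2-Ea showed the largest difference of all genes. It encodes the alpha chain of the class II molecule E, and mice of the b haplotype, which C57BL/6 mice carry, are known to lack its transcript because of a promoter deletion. It read 5.75, 5.42, 5.34, 5.58 and 5.68 in C57Bl/6 and 11.41, 10.83, 11.34, 11.11 and 11.23 in Largemyd. All 5 Largemyd arrays were high and alike and all 5 C57Bl/6 arrays were near the bottom of the scale, C57Bl/6 array 2 included, and the difference was 5.63 ± 0.89 (adjusted p = 3.2e-06). The SE is wide because it pools the spread in all 12 groups. The difference was 5.94 ± 0.89 at 3 months and 4.65 ± 0.89 at 6 months, with adjusted p = 8.9e-07 and 3e-05. In the groups of 21 days that share these C57Bl/6 arrays it was -0.11 ± 0.89 in Dmdmdx and 3.02 ± 0.89 in the double mutant.

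Markers of other blood cells gave few calls. Of 30 T and NK cell markers 1 rose and 1 fell, and of 27 B cell and lymph node markers 0 rose and 1 fell. The mean of the T and NK cell markers was 7.77 in C57Bl/6 array 2 and 5.69 to 5.88 in the other C57Bl/6 arrays, beside 6.63, 6.36, 6.0, 5.99 and 5.91 in Largemyd arrays 1 to 5. Of 29 neutrophil and marrow markers none passed, and of 18 dendritic cell markers 4 rose. In the smaller set of 7 arrays 4 T and NK cell markers, 3 B cell and lymph node markers, 1 neutrophil marker and 7 dendritic cell markers were higher. Without C57Bl/6 array 2 alone, 5 T and NK cell markers and 9 dendritic cell markers rose. The part of the lymph node signal in the immune genes above was not tested apart from these counts. Tpsab1, a protease of mast cells, read 5.65, 5.75, 5.58, 5.49 and 5.71 in C57Bl/6 and 7.14, 7.37, 7.74, 6.83 and 7.72 in Largemyd. It rose by 1.73 ± 0.15 (adjusted p = 3.6e-12) with no overlap, while of 18 mast cell and eosinophil markers 3 passed. Itgax, an integrin of dendritic cells and macrophages, rose by 1.44 ± 0.22 (adjusted p = 2.7e-06).

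**Figure D4:**
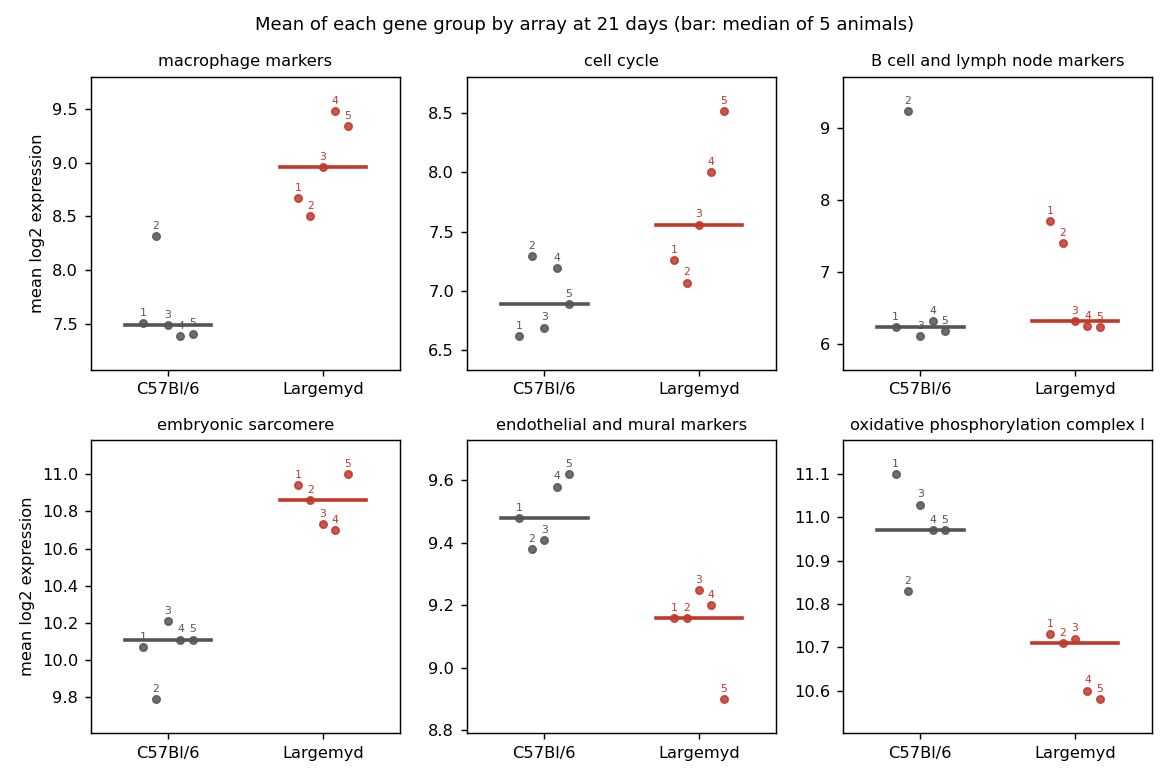
Mean log2 expression of the members of 6 gene groups in each C57Bl/6 array (grey) and Largemyd array (red) at 21 days, with array numbers beside the points and the group median as a bar. The lymph node mean of C57Bl/6 array 2 (9.24) lies above every other array, while its macrophage mean (8.32) lies below the lowest Largemyd array (8.50).

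Many matrix genes rose, while Col1a1 and Col3a1 did not pass. Of 53 collagens and matrix proteins 25 rose and 1 fell, and in the smaller set of 7 arrays 29 were higher and 0 lower. Postn, which encodes periostin, read 11.52, 11.19, 11.69, 11.66 and 11.66 in C57Bl/6 and 12.68, 12.45, 12.55, 12.61 and 13.10 in Largemyd. All Largemyd arrays were higher, array 5 most, and Postn rose by 1.14 ± 0.22 (adjusted p = 0.00012). P4ha3, a collagen prolyl hydroxylase, rose by 1.34 ± 0.28 (adjusted p = 0.00027), Col8a1, a short-chain collagen, by 1.05 ± 0.20 (adjusted p = 5.6e-05) and Vcan, the proteoglycan versican, by 1.04 ± 0.16 (adjusted p = 1.5e-06). Tnc, which encodes tenascin C, read 8.32, 8.45, 8.62, 8.98 and 8.74 in C57Bl/6 and 8.80, 8.83, 9.67, 10.52 and 11.16 in Largemyd. Arrays 3 to 5 carried most of its difference of 1.17 ± 0.34 (adjusted p = 0.0085), and arrays 1 and 2 lay among the controls. The call of Tnc was lost without Largemyd array 5, or in a fit of these 10 arrays alone (adjusted p = 0.072 to 0.074). Col1a1 differed by -0.29 ± 0.23 (adjusted p = 0.4) and Col3a1 by 0.34 ± 0.17 (adjusted p = 0.15). These encode the main chains of the fibrillar collagens of scar.

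Proteases that cut the matrix, and their inhibitors, rose alongside. Of 38 measured genes 19 rose and 4 fell, and in the smaller set of 7 arrays 17 were higher and 2 lower. Mmp12, the elastase of macrophages, read 5.54, 5.86, 6.35, 6.29 and 6.14 in C57Bl/6 and 7.90, 8.0, 8.81, 9.81 and 9.67 in Largemyd, rising by 2.80 ± 0.35 (adjusted p = 2.5e-08) with Largemyd arrays 4 and 5 highest. Timp1, an inhibitor of such proteases, read 7.01, 6.95, 7.82, 7.81 and 7.45 and 9.36, 9.36, 10.14, 10.92 and 11.16. It rose by 2.78 ± 0.27 (adjusted p = 5.2e-11) without overlap, and arrays 4 and 5 were again highest. Mmp19 rose by 1.84 ± 0.18 (adjusted p = 2.4e-11) and Adam8, a protease of leukocytes, by 1.84 ± 0.23 (adjusted p = 3.3e-08). Serpina3n, a secreted protease inhibitor, read 7.77, 9.22, 7.53, 7.53 and 7.66 in C57Bl/6 and 11.72, 11.88, 10.61, 11.17 and 10.58 in Largemyd. C57Bl/6 array 2 was the highest control, and Serpina3n rose by 3.25 ± 0.34 (adjusted p = 1.9e-10).

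About as many cell cycle genes rose as did not, with wide spread between animals. Of 51 measured genes 25 rose and 1 fell, with a median difference of 0.75. In the smaller set of 7 arrays 44 were higher with a median of 1.16, a larger count. The count rested on few arrays: it was 4 without Largemyd array 5, 15 without Largemyd array 4, and 13 and 14 without C57Bl/6 array 1 or 3. Their mean was 6.62, 7.29, 6.69, 7.19 and 6.89 in C57Bl/6 arrays 1 to 5 and 7.26, 7.07, 7.56, 8.0 and 8.52 in Largemyd arrays 1 to 5. Largemyd array 5 was highest and arrays 1 and 2 lay within the range of the controls. Ccna2, which encodes cyclin A, read 6.24, 7.91, 6.65, 8.01 and 7.28 in C57Bl/6 and 8.47, 8.14, 8.99, 9.61 and 9.95 in Largemyd, a difference of 1.81 ± 0.52 (adjusted p = 0.0078). Cdk1, the kinase of mitosis, read 7.29, 7.97, 6.98, 8.06 and 7.47 and 8.49, 8.20, 8.68, 9.24 and 10.06, a difference of 1.38 ± 0.37 (adjusted p = 0.0047), without overlap but with the lowest Largemyd array close above the highest control. Anln, which encodes anillin of the contractile ring, rose by 1.40 ± 0.36 (adjusted p = 0.003).

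Some genes of the adult fibre, mainly fast fibre proteins, fell by small amounts. Of 24 fast fibre proteins 6 fell (25%) and 0 rose, where 13.1% of all genes fell and 9.89% rose. All 5 Largemyd arrays lay below all 5 C57Bl/6 arrays for 17 of these 24 genes, called or not, beside 8.34% of all genes. Among 17 slow fibre proteins 2 fell (11.8%) and 1 rose (5.88%), no more than among all genes. In the smaller set of 7 arrays 5 fast and 2 slow fibre proteins were lower. Ampd1, the adenosine monophosphate deaminase of fast fibres, read 12.63, 12.49, 12.72, 12.77 and 12.70 in C57Bl/6 and 11.56, 11.64, 12.19, 12.10 and 11.90 in Largemyd. All Largemyd arrays were lower, arrays 1 and 2 most, and the difference was -0.79 ± 0.17 (adjusted p = 0.00042). Mybpc2, a fast myosin-binding protein, differed by -0.56 ± 0.12 (adjusted p = 0.00045) and Actn3, the fast alpha-actinin, by -0.38 ± 0.08 (adjusted p = 0.00051). Sln encodes sarcolipin, an inhibitor of the calcium pump of the sarcoplasmic reticulum. It rose by 1.04 ± 0.19 (adjusted p = 3.5e-05), from 6.67, 6.09, 6.95, 6.78 and 6.87 in C57Bl/6 to 7.91, 7.89, 7.50, 8.02 and 7.22 in Largemyd, with no overlap. Atp2a1, the pump itself, differed by -0.26 ± 0.05 (adjusted p = 0.00027). The call of Atp2a1 was lost after a second quantile normalization (adjusted p = 0.097). Mb, which encodes myoglobin, differed by -0.59 ± 0.18 (adjusted p = 0.012). The call of Mb was lost in a fit of the 20 arrays of 21 days (adjusted p = 0.11).

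Several genes that couple the action potential to contraction fell. Of 30 measured genes 13 fell and 0 rose, where 13.1% of all genes fell, and the count was 13 in the smaller set of 7 arrays. Clcn1 encodes the chloride channel that stabilises the membrane of the fibre. It read 9.86, 9.44, 9.78, 9.75 and 9.67 in C57Bl/6 and 8.22, 8.45, 8.90, 8.61 and 8.32 in Largemyd, with no overlap and a difference of -1.20 ± 0.22 (adjusted p = 3.8e-05). Jph1, a junctophilin that ties the transverse tubule to the sarcoplasmic reticulum, read 11.93, 11.70, 11.96, 11.80 and 11.77 and 10.87, 11.03, 11.03, 10.82 and 10.78. All 5 Largemyd arrays were lower and the difference was -0.92 ± 0.17 (adjusted p = 6.6e-05). Atp1b2, a subunit of the sodium pump, differed by -0.75 ± 0.17 (adjusted p = 0.00096). Jph2, the other junctophilin, differed by -0.82 ± 0.21 (adjusted p = 0.0026), and Stac3, a partner of the calcium channel of the tubule, by -0.65 ± 0.18 (adjusted p = 0.0055). The call of Jph2 was lost without both Largemyd arrays 1 and 2, or in the smaller set of 7 arrays (adjusted p = 0.054 to 0.063). The call of Stac3 was lost without both Largemyd arrays 1 and 2 (adjusted p = 0.058).

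Of the called regulators of muscle mass, Mt2, Mt1 and Mstn differed most. Mstn encodes myostatin, an inhibitor of muscle growth that fibres secrete. It read 10.24, 10.01, 10.26, 9.87 and 9.92 in C57Bl/6 arrays 1 to 5 and 7.90, 8.14, 8.88, 8.43 and 8.45 in Largemyd arrays 1 to 5. Every Largemyd array was lower, arrays 1 and 2 most, and the difference was -1.70 ± 0.30 (adjusted p = 1.7e-05), a level 3.26-fold lower. The metallothioneins Mt1 and Mt2, which bind zinc, rose by 1.79 ± 0.26 (adjusted p = 8.2e-07) and 1.95 ± 0.24 (adjusted p = 1.3e-08). C57Bl/6 array 1 was the highest control for Mt2, with 12.69, 11.55, 11.47, 10.54 and 10.31 in C57Bl/6 and 13.41, 13.44, 13.24, 13.08 and 13.14 in Largemyd. The ubiquitin ligases of atrophy did not pass, with 0.53 ± 0.38 for Trim63 (adjusted p = 0.35) and 1.04 ± 0.42 for Fbxo32 (adjusted p = 0.067). Fbxo32 passed without Largemyd array 3 or 5 (adjusted p = 0.013 to 0.047). Fst, which encodes the myostatin antagonist follistatin, differed by 0.04 ± 0.16 (adjusted p = 0.89) and Igf1, the growth factor of repair, by 0.23 ± 0.13 (adjusted p = 0.21). Igf1 passed without both Largemyd arrays 1 and 2, or in the smaller set of 7 arrays (adjusted p = 0.027 to 0.046). Ostn, a peptide secreted by fibres, differed by -0.93 ± 0.26 (adjusted p = 0.0071). The call of Ostn was lost without both Largemyd arrays 1 and 2 (adjusted p = 0.067). Of 37 regulators 4 rose (10.8%) and 5 fell (13.5%), close to the shares over all genes (9.89% and 13.1%). In the smaller set of 7 arrays 6 were higher and 5 lower.

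Some mitochondrial genes fell in each of 4 groups. Of 35 subunits and assembly factors of complex I 17 fell and 0 rose (17 lower in the smaller set of 7 arrays). Of 43 genes of complexes II to V 12 fell and 1 rose (19 lower), and of 34 genes of the tricarboxylic acid cycle and amino acid breakdown 13 fell and 0 rose (18 lower). Of 32 genes of fatty acid oxidation 13 fell and 2 rose (17 lower). The count was 11 for complex I without C57Bl/6 array 1 and 8 for fatty acid oxidation without Largemyd array 5. Median differences were small, -0.26 for complex I and -0.27 for fatty acid oxidation. Ndufa9 encodes a complex I subunit. It read 11.30, 10.93, 11.12, 11.15 and 11.19 in C57Bl/6 and 10.65, 10.61, 10.62, 10.44 and 10.51 in Largemyd, without overlap, and differed by -0.58 ± 0.11 (adjusted p = 5.1e-05). Cox5a, of complex IV, differed by -0.56 ± 0.12 (adjusted p = 0.0003), Suclg1, of the tricarboxylic acid cycle, by -0.56 ± 0.12 (adjusted p = 0.00034), and Eci1, an isomerase of fatty acid oxidation, by -0.66 ± 0.11 (adjusted p = 4.6e-06). Slc25a20 carries acyl groups into mitochondria and differed by -0.80 ± 0.14 (adjusted p = 1.8e-05). Ppargc1a, a coactivator of mitochondrial genes, read 10.64, 9.88, 9.98, 9.90 and 9.88 in C57Bl/6 and 11.39, 11.30, 9.55, 9.29 and 8.94 in Largemyd. Largemyd arrays 1 and 2 were the highest of all 10 and arrays 3 to 5 the lowest, so the mean difference of 0.04 ± 0.33 (adjusted p = 0.96) describes no single animal. Ppargc1a passed without both Largemyd arrays 1 and 2, or in the smaller set of 7 arrays (adjusted p = 0.042 to 0.047).

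Subunits of the kinase that controls glycogen breakdown fell. Phkg1 and Phka1 encode subunits of phosphorylase kinase, which switches glycogen phosphorylase on. Phkg1 read 11.33, 11.25, 11.36, 11.34 and 11.42 in C57Bl/6 and 10.09, 10.24, 10.69, 10.32 and 10.04 in Largemyd, a difference of -1.07 ± 0.22 (adjusted p = 0.00027) with every Largemyd array lower. Phka1 differed by -0.96 ± 0.22 (adjusted p = 0.00077). Over the 39 genes of glycolysis and glycogen use 11 fell and 6 rose (16 and 8 in the smaller set of 7 arrays, and 7 falls without Largemyd array 5). Gatm, the first enzyme of creatine synthesis, rose by 0.76 ± 0.18 (adjusted p = 0.0017). Angptl4, a secreted inhibitor of lipoprotein lipase, rose by 1.21 ± 0.26 (adjusted p = 0.00035).

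Most measured genes of the vessel wall fell. Of 39 endothelial and mural cell markers 23 fell and 1 rose, with a median difference of -0.38, and in the smaller set of 7 arrays 20 were lower. Their mean was 9.48, 9.38, 9.41, 9.58 and 9.62 in C57Bl/6 arrays 1 to 5 and 9.16, 9.16, 9.25, 9.20 and 8.90 in Largemyd arrays 1 to 5, with no overlap and Largemyd array 5 lowest. Apln, which encodes the endothelial peptide apelin, read 8.56, 8.17, 8.57, 9.02 and 8.97 in C57Bl/6 and 7.66, 7.76, 7.91, 7.40 and 7.83 in Largemyd, a difference of -0.94 ± 0.14 (adjusted p = 1.4e-06). Tek, the angiopoietin receptor, differed by -0.70 ± 0.13 (adjusted p = 3.7e-05) and Flt1, a receptor of vascular endothelial growth factor, by -0.69 ± 0.12 (adjusted p = 2e-05). Kcnj8 and Abcc9 encode the pore and the regulatory subunit of the potassium channel of pericytes and smooth muscle, and differed by -0.75 ± 0.13 and -0.70 ± 0.13 (adjusted p = 3.4e-05 and 7.4e-05). Pecam1, the common endothelial marker, differed by -0.23 ± 0.11 (adjusted p = 0.15), and Vwf, which encodes von Willebrand factor, by -0.28 ± 0.11 (adjusted p = 0.054). Vwf passed without Largemyd array 3 or 4, or with array medians subtracted, or with a filter on low values (adjusted p = 0.012 to 0.05).

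Stromal, fat and nerve genes changed in fewer members. Of 28 markers of fibro-adipogenic progenitors 5 rose and 1 fell, and 3 rose without C57Bl/6 array 2 or without Largemyd array 3. Pdgfra, their defining receptor, read 9.92, 9.81, 9.89, 9.68 and 9.81 in C57Bl/6 and 10.49, 10.56, 10.27, 10.55 and 9.96 in Largemyd, rising by 0.55 ± 0.11 (adjusted p = 0.00011) although Largemyd array 5 lay just above the controls. Opcml, a cell adhesion protein counted with these markers, fell, with a difference of -1.07 ± 0.14 (adjusted p = 5.3e-08) and no overlap. Of 23 fat cell markers 2 fell and 0 rose. Among 27 tendon and nerve sheath markers 2 rose and 4 fell. Thbs4, a thrombospondin of tendon and injured muscle, rose by 1.05 ± 0.15 (adjusted p = 2.7e-07), and Pmp2, a myelin protein of Schwann cells, read 8.99, 7.79, 8.16, 8.69 and 8.42 in C57Bl/6 and 6.39, 6.91, 7.90, 7.10 and 7.43 in Largemyd. Largemyd array 3 overlapped the controls, and the difference was -1.26 ± 0.22 (adjusted p = 1.5e-05). Of 23 skin markers 1 rose and of 22 bone and cartilage markers 0 rose. The mean of the skin markers was 7.04 and 7.01 in Largemyd arrays 1 and 4 and 5.87 to 6.69 on the other arrays, and its part in the results above was not tested.

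Clock, stress and immediate early genes gave mixed values. Over all genes 9.89% rose and 13.1% fell. Of 17 clock genes 4 fell (23.5%) and 0 rose (1 lower in the smaller set of 7 arrays). Of 33 stress genes 4 rose and 4 fell (12.1% each), close to the shares over all genes. Mt1 and Mt2 are counted among the rises of both the stress genes and the regulators of muscle mass. Of 25 immediate early genes 5 rose (20%) and 2 fell (8%), and 8 rose without Largemyd array 1. The times of day of dissection are not given in the sources used here. Nr4a1, a nuclear receptor induced by activity, read 10.30, 10.56, 10.29, 9.97 and 10.03 in C57Bl/6 and 8.85, 9.24, 9.48, 9.10 and 8.84 in Largemyd. All Largemyd arrays were lower, a difference of -1.13 ± 0.21 (adjusted p = 4.5e-05). Hmox1, which encodes heme oxygenase 1, rose by 1.01 ± 0.29 (adjusted p = 0.0072) with C57Bl/6 array 1 among the Largemyd values. Hspb1, a small heat shock protein of the sarcomere, differed by 0.82 ± 0.21 (adjusted p = 0.0031). The call of Hspb1 was lost in the smaller set of 7 arrays (adjusted p = 0.073).

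Of the 12 largest falls, Dhrs7c, Mstn and Cd28 belong to gene groups above (excitation-contraction coupling, growth regulators, and T and NK cell markers), and the others to none of them. Nxpe4, a gene of the neurexophilin and esterase domain family, read 8.03, 7.82, 8.04, 8.34 and 8.32 in C57Bl/6 and 6.01, 5.68, 6.49, 5.67 and 5.86 in Largemyd, the largest fall of the comparison at -2.17 ± 0.18 (adjusted p = 8e-13). Plcd4, a phospholipase C, read 10.07, 9.90, 10.36, 10.26 and 10.18 and 7.36, 7.09, 9.07, 8.82 and 8.63. Largemyd arrays 1 and 2 were lowest, and the difference was -1.96 ± 0.35 (adjusted p = 3.4e-05). Dhrs7c, a dehydrogenase of the sarcoplasmic reticulum, differed by -1.78 ± 0.22 (adjusted p = 2.6e-08). Gpd2, the mitochondrial glycerol phosphate dehydrogenase, read 10.50, 10.40, 10.61, 10.65 and 10.61 in C57Bl/6 and 9.0, 9.02, 9.47, 9.30 and 8.99 in Largemyd. The groups were tight and separate, with a difference of -1.40 ± 0.13 (adjusted p = 9.4e-12). Smco1, a membrane protein of muscle, differed by -1.45 ± 0.27 (adjusted p = 4.3e-05), Asb16, a substrate adaptor of ubiquitin ligases, by -1.33 ± 0.16 (adjusted p = 1.1e-08) and Lrrc38, an auxiliary subunit of potassium channels, by -1.33 ± 0.20 (adjusted p = 8.5e-07).

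Ky, a sarcomere-linked protein whose loss causes muscle disease with curvature of the spine, differed by -1.52 ± 0.34 (adjusted p = 0.00061), Lgi1, a secreted protein of synapses, by -1.44 ± 0.38 (adjusted p = 0.0039) and Tent5c, a poly(A) polymerase, by -1.35 ± 0.44 (adjusted p = 0.019). The call of Ky was lost without both Largemyd arrays 1 and 2, or in the smaller set of 7 arrays (adjusted p = 0.067 to 0.076). The call of Lgi1 was lost without both Largemyd arrays 1 and 2 (adjusted p = 0.058). The call of Tent5c was lost without C57Bl/6 array 2, or Largemyd array 2, or both Largemyd arrays 1 and 2, or C57Bl/6 array 2 with Largemyd array 1, or in the smaller set of 7 arrays (adjusted p = 0.052 to 0.13). Cd28 encodes the costimulatory receptor of T cells. It read 8.23, 8.88, 8.37, 8.03 and 8.29 in C57Bl/6 and 7.11, 6.71, 6.54, 6.67 and 6.82 in Largemyd, and fell, with a difference of -1.59 ± 0.15 (adjusted p = 1.1e-11). C57Bl/6 array 2 was the highest, but the other controls were also above every Largemyd array. Hal, which encodes histidine ammonia-lyase, read 5.94, 5.69, 5.18, 5.54 and 5.71 in C57Bl/6 and 7.49, 7.34, 8.32, 10.68 and 9.40 in Largemyd. It rose by 3.04 ± 0.56 (adjusted p = 4.7e-05) with a spread of more than 3 log2 units among the Largemyd arrays. Akr1e1, an aldo-keto reductase, rose by 3.25 ± 0.43 (adjusted p = 7.3e-08).

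The series allows the same comparison in Dmdmdx mice, which lack dystrophin in muscle, and a direct comparison of Largemyd with Dmdmdx at 21 days. Both mutants share the 5 C57Bl/6 arrays, so their differences from C57Bl/6 are given side by side only. Myh3 differed from C57Bl/6 by 3.26 ± 0.36 in Largemyd and by 3.10 ± 0.36 in Dmdmdx, Mymk by 2.29 ± 0.33 and 2.11 ± 0.33, and Mstn by -1.70 ± 0.30 and -0.83 ± 0.30. Dmd, the gene mutated in Dmdmdx, differed by -0.12 ± 0.18 in Largemyd and -1.22 ± 0.18 in Dmdmdx. Between both mutants directly, 1782 genes differed (8.94%), of which 773 were higher in Largemyd (3.88%) and 1009 lower (5.06%). With array medians subtracted 55.1% of the called genes were higher in Largemyd, against 43.4% as deposited. This count rests on few arrays: it was 913 without Largemyd array 1, 819 without Largemyd array 2, 555 without Largemyd arrays 1 and 2, and 155 without the 5 arrays of 21 days that were high in lymph node markers. Those 5 are C57Bl/6 array 2, Largemyd array 1 and Dmdmdx arrays 1, 3 and 5. Largemyd array 2 was kept in that setting, although its mean of these markers was 7.40, beside 7.71 in Largemyd array 1. Only Dmdmdx arrays 2 and 4 remain there, and the part of the smaller number of arrays in the drop was not tested.

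Genes that separated Largemyd from Dmdmdx included the imprinted region and several of the largest changes. Of the 48 measured genes of the Dlk1 to Dio3 region 21 were higher in Largemyd than in Dmdmdx and 0 lower. The count was 18 without Largemyd arrays 1 and 2 and 7 without the 5 arrays high in lymph node markers. Dlk1 was higher in Largemyd than in Dmdmdx by 1.13 ± 0.18 (adjusted p = 1.7e-05), Mir136 by 1.54 ± 0.27 (adjusted p = 7.8e-05) and Mir134 by 0.99 ± 0.14 (adjusted p = 2.8e-06). Against C57Bl/6 the double mutant showed 1.42 ± 0.18 for Dlk1 and 1.86 ± 0.27 for Mir136, and Dmdmdx 0.34 ± 0.18 and 0.14 ± 0.27. H2-Ea was higher by 5.74 ± 0.89 (adjusted p = 1.2e-05), Hal by 2.38 ± 0.56 (adjusted p = 0.0043, but 0.14 without the 5 arrays high in lymph node markers) and Tpsab1 by 1.87 ± 0.15 (adjusted p = 5.3e-13). Cd28 was lower by a difference of -1.65 ± 0.15 (adjusted p = 7e-12) and Nxpe4 by -1.90 ± 0.18 (adjusted p = 6.4e-11). For Cd28 the difference from C57Bl/6 was 0.06 ± 0.15 in Dmdmdx and -1.84 ± 0.15 in the double mutant. Myh8 was higher in Largemyd than in Dmdmdx by 0.81 ± 0.25 (adjusted p = 0.029), and this call was lost without Largemyd array 1, 2 or 5 (adjusted p = 0.059 to 0.099) and with array weights (0.057). It was also lost without C57Bl/6 array 2 and Largemyd array 1 (0.093), without Largemyd arrays 1 and 2 (0.25), in the smaller set of 7 arrays (0.23) and without the 5 arrays high in lymph node markers (0.61). Of 37 interferon-induced genes 27 were lower in Largemyd than in Dmdmdx, 12 without Largemyd array 1 or without Largemyd array 2, and 0 without the 5 arrays high in lymph node markers. In that last setting only Dmdmdx arrays 2 and 4 remain, and the part of array number in the drop was not tested.

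The deposited values of each age have their own overall level, so expression was not compared between ages, and only differences from the C57Bl/6 arrays of the same age were set against each other. The difference between Largemyd and C57Bl/6 at 3 months departed from that at 21 days for 526 genes (2.64%), and that at 6 months for 2128 genes (10.7%). The first count was 343 without Largemyd array 1 at 21 days, and 333 without Largemyd arrays 1 and 2. In all, 1730 of 19938 genes changed in the same direction at all 3 ages. The counts of genes changed at 3 months and at 6 months are not given here, so 1730 is not read as a measure of agreement. At 6 months minus 21 days, 1217 differences were higher (6.10%) and 911 lower (4.57%). The departures at 3 months were 398 higher (2.0%) and 128 lower (0.642%).

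Some differences in the imprinted region were smaller at the later ages. Of its 48 measured genes the difference was smaller at 3 months than at 21 days for 12, and smaller at 6 months for 18, while it was larger at neither age for any. These counts were 7 and 16 in the smaller set of 7 arrays, 6 and 15 without C57Bl/6 array 2 and Largemyd array 1, and 8 and 18 without Largemyd array 1. Mir136 differed by 1.69 ± 0.27 at 21 days, -0.12 ± 0.27 at 3 months and -0.07 ± 0.27 at 6 months, and the change of the difference to 3 months was -1.81 ± 0.38 (adjusted p = 0.0032). This change was -1.18 in the smaller set of 7 arrays and the call was lost (adjusted p = 0.072). Dlk1 differed by 1.47 ± 0.18, 0.75 ± 0.18 and 0.31 ± 0.18, and the change to 6 months was -1.16 ± 0.25 (adjusted p = 0.0014). Meg3 differed by 1.14 ± 0.20, 0.32 ± 0.20 and 0.04 ± 0.20, with a change to 6 months of -1.10 ± 0.28 (adjusted p = 0.0063). For Meg3 this was -0.76 in the smaller set and did not pass (adjusted p = 0.088). Cd28 differed by -1.59 ± 0.15, 0.03 ± 0.15 and 0.20 ± 0.15, and both changes passed (adjusted p = 5.5e-06 and 5.4e-08).

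Myh3 and Tnnt2 were still above C57Bl/6 at 6 months, with smaller differences than at 21 days. Of 19 embryonic sarcomere genes 5 were higher and 3 lower in Largemyd than in C57Bl/6 at 6 months. The share over all genes in that comparison is not given here, so this count is not read as a result about the group. Myh3 differed by 3.26 ± 0.36 at 21 days, 2.98 ± 0.36 at 3 months and 1.60 ± 0.36 at 6 months, and the change to 6 months was -1.66 ± 0.51 (adjusted p = 0.027). That call was lost without C57Bl/6 array 2 or without Largemyd array 5 of 21 days (adjusted p = 0.057 and 0.064). It was also lost without C57Bl/6 array 2 and Largemyd array 1 (0.081), in the smaller set of 7 arrays (0.078) and without the 5 arrays high in lymph node markers (0.092). Tnnt2 differed by 3.12 ± 0.30, 2.31 ± 0.30 and 1.24 ± 0.30 (change to 6 months -1.88 ± 0.42, adjusted p = 0.002). Mstn differed by -1.70 ± 0.30, -1.82 ± 0.30 and -2.63 ± 0.30, and its change to 6 months of -0.93 ± 0.42 did not pass (adjusted p = 0.15), but passed with array weights (-0.97, adjusted p = 0.024). Among the embryonic sarcomere genes 5 differences were smaller at 6 months and 0 larger, and 3 were smaller without C57Bl/6 array 2 of 21 days.

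Matrix and vessel genes moved the other way with age. Of 53 matrix genes 16 differences were higher at 6 months than at 21 days and 0 lower (10 and 1 without Largemyd arrays 1 and 2 of 21 days), and of 39 endothelial and mural markers 22 were higher and 0 lower. Col1a1 differed by -0.29 ± 0.23 at 21 days, 0.48 ± 0.23 at 3 months and 0.95 ± 0.23 at 6 months, and the change to 6 months passed (adjusted p = 0.0068). Col3a1 differed by 0.34 ± 0.17, 1.38 ± 0.17 and 1.55 ± 0.17, and both changes passed (adjusted p = 0.0081 and 0.00052). The change of Col3a1 to 3 months was 0.90 without Largemyd arrays 1 and 2 of 21 days and did not pass (adjusted p = 0.056). Igf2 differed by 0.49 ± 0.21, 2.22 ± 0.21 and 1.44 ± 0.21, with a change to 3 months of 1.73 ± 0.29 (adjusted p = 0.00032). Nos1 differed by -0.36 ± 0.21, -1.71 ± 0.21 and -1.66 ± 0.21, with a change to 3 months of -1.35 ± 0.30 (adjusted p = 0.0054), which was -1.11 and did not pass in the smaller set of 7 arrays (adjusted p = 0.061). The vessel group at 21 days, with a median of -0.38, was at -0.143 at 3 months and 0.186 at 6 months.

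**Figure D5:**
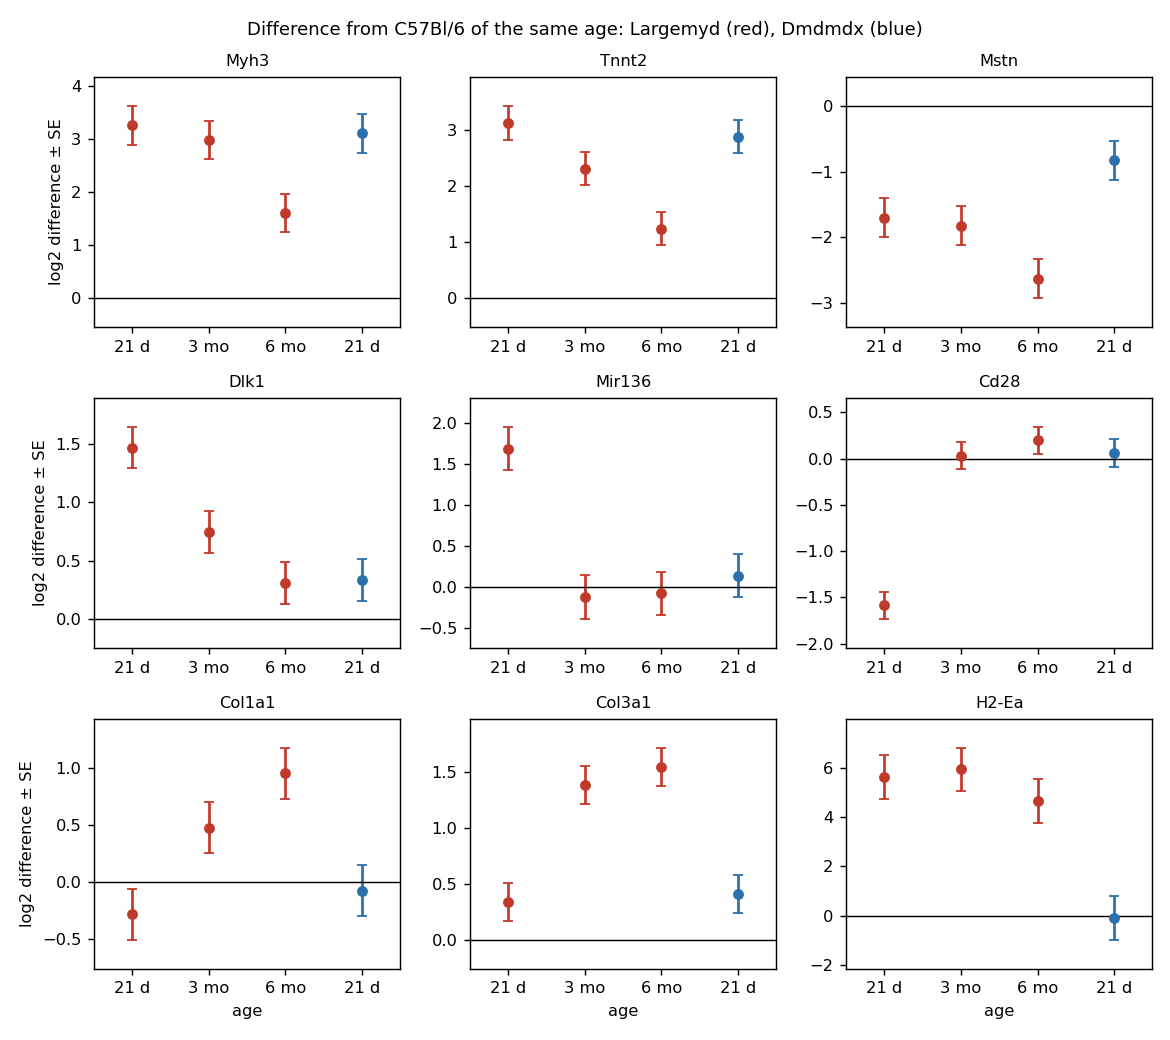
Log2 difference from C57Bl/6 of the same age, with its SE, for Largemyd at 21 days, 3 months and 6 months (red, 5 animals per group) and for Dmdmdx at 21 days (blue) for 9 genes. Mir136 and Cd28 depart from 0 in Largemyd at 21 days and lie near it at 3 and 6 months, Myh3 and Tnnt2 shrink by 6 months, Mstn stays low, and Col1a1 and Col3a1 are higher at the later ages.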

How the data were processed

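Calf muscle RNA was measured on 1 array per animal, so n is the number of animals and p-values measure the spread between them. Per the submitters' processing notes, the authors made the deposited log2 values with RMA (background correction, quantile normalization and probe summary) in Expression Console of Affymetrix (the sources used here name no version). RMA equalises the arrays it is run on, and the values of each age have a level of their own. Of 35556 probe sets, 21789 had 1 gene symbol, and each of 19938 genes was read from its probe set of highest mean across the 60 arrays. Probe sets with several symbols (1621) or with none used here (12146) were left out. No 2 arrays were identical, and 1 gene is not reported here.

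limma 3.58.1 (R 4.3.3) fitted a mean for each of the 12 groups over 60 arrays, with 48 residual degrees of freedom and Benjamini-Hochberg adjustment over all genes. Called means adjusted p under 0.05, two-sided. The code was tested on simulated data. Tables and plots used Python 3.11.15, pandas 2.3.3 and matplotlib 3.10.9. Members and lists were chosen with earlier results of these data known. The 40 lists hold 1218 genes, of which 1118 were measured. Named are, of called genes without overlap and leaving out predicted genes, the 12 that rose most and the 12 that fell most, up to 6 called members per list by size, and a set of genes of dystrophy. To these come members of the dystrophin complex, glycosylation, chemokine, myosin and growth lists where their roles are described. Calcr, Musk, Chrne, Pecam1, Vwf, Ccr2 and the genes of the Dlk1 to Dio3 region were chosen after their values were seen. MicroRNA and promoter sequences are RefSeq's (GRCm38.p6). The alternatives were fits of 10 or 20 arrays, medians subtracted, a second quantile normalization, array weights, a filter on low values, averaged probe sets, a trended robust prior and arrays left out.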

Additional observations from a re-analysis of the deposited data

Results flagged for a closer look

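Within each group of 5, an array was singled out where its gap to the nearest other array exceeded 0.71 of the range of the group. Among 400 groups tested (the gene groups and the genes of the text, in each lineage) 36 such arrays were found, and chance singles out about 1 in 20 groups. The array was C57Bl/6 array 2 in 26 cases and Largemyd array 5 in 7. In C57Bl/6 array 2 the mean log2 level stood above its group at 8.32 for macrophage markers, 7.60 for chemokines and receptors, 7.92 for cytokines and receptors, 8.0 for complement genes and 8.07 for interferon-induced genes. It stood above at 8.79 for antigen presentation genes, 7.77 for T and NK cell markers, 9.24 for B cell and lymph node markers, 6.97 for neutrophil and marrow markers, 7.55 for dendritic cell markers and 6.69 for skin markers too, and below at 8.82 for imprinted genes. Single genes high in this array were C1qb at 10.60, Ccl19 at 10.17, Ccl8 at 7.43, Ccr2 at 7.16, Cd68 at 8.55, Cd74 at 11.75 and Ctss at 9.02. The others were Ctsz at 10.17, H2-Aa at 11.38, Irf8 at 9.60, Mpeg1 at 8.66, Serpina3n at 9.22 and Tgfb1 at 9.35, while Itgb1 was low at 10.22. Largemyd array 5 had the lowest means of fast fibre proteins at 12.36, endothelial and mural markers at 8.90 and glycolysis and glycogen at 10.19. Of the genes, Chrnd at 8.97 and Chrng at 9.77 were highest in it, and Flt1 at 8.27 and Pecam1 at 9.57 lowest. Dag1 stood apart at 10.80 in Largemyd array 4, Mybpc2 at 13.11 in C57Bl/6 array 3 and Ppargc1a at 10.64 in C57Bl/6 array 1.

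The difference between Largemyd and C57Bl/6 was also tested between ages, as a difference of differences in the limma fit, for the genes of the text. The tests that passed number 62, and the values are log2 differences at the later age minus those at 21 days. To 3 months it moved upward by 0.82 for Apln, 1.62 for Cd28, 1.04 for Col3a1, 0.68 for Igf1, 1.73 for Igf2, 1.32 for Mybph, 0.91 for Ndn, 0.79 for Opcml and 0.32 for Pomt2. The move to 3 months was downward, with -1.22 for Mir134, -1.81 for Mir136, -1.08 for Mir380, -1.05 for Mir382, -1.13 for Mir434, -1.43 for Myh8, -1.35 for Nos1, -1.27 for Ostn and -1.27 for Tpsab1. To 6 months it moved upward by 0.54 for Ackr3, 0.86 for Apln, 1.78 for Cd28, 1.24 for Col1a1, 1.21 for Col3a1, 0.83 for Cxcl12, 0.85 for Fst, 0.88 for Igf1 and 0.95 for Igf2. Further upward moves to this age were 0.68 for Itga6, 1.07 for Ndn, 1.34 for Nxpe4, 0.92 for Opcml, 0.70 for Pecam1, 1.13 for Pmp2, 0.85 for Tek, 0.44 for Utrn and 0.55 for Vwf. The move to 6 months was downward, with -2.0 for Atp6v0d2, -1.98 for Ccl3, -1.38 for Chrng, -1.16 for Dlk1, -2.59 for Fbxo32, -1.16 for Gpnmb, -1.10 for Meg3, -1.31 for Mir134 and -1.76 for Mir136. Further downward moves to this age were -1.06 for Mir380, -1.47 for Mir382, -0.64 for Mir411, -1.03 for Mir434, -1.0 for Musk, -0.74 for Mx2, -1.66 for Myh3, -0.37 for Myh4 and -2.09 for Myh8. Also downward were -0.94 for Myl4, -1.30 for Nos1, -2.23 for Ostn, -1.30 for Peg10, -0.91 for Rian, -1.88 for Tnnt2, -1.08 for Tpsab1 and -1.59 for Trim63.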

How the results depend on the processing

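The count of genes changed between Largemyd and C57Bl/6 at 21 days, 4589, stayed within 1.5 times of that value in every alternative run. It ranged from 3800 to 4833 when 1 array was left out, and was 3106 in a fit of the 10 arrays alone, 3703 in a fit of the 20 arrays of 21 days and 5472 with array weights. Rises were 43% of the called genes as deposited and 31.9% with array medians subtracted. Of the 1118 list members, 415 changed, with a range of 339 to 440 when 1 array was left out.

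The 1782 genes that differed between Largemyd and Dmdmdx became 734 in a fit of the 20 arrays of 21 days, 1065 without C57Bl/6 array 2 and Largemyd array 1, 555 without Largemyd arrays 1 and 2, 664 without these and C57Bl/6 array 2, and 155 without the 5 arrays high in lymph node markers. Leaving out 1 array gave 819 to 2485. For the difference at 3 months minus that at 21 days, the count of 526 became 967 with array weights, 333 without Largemyd arrays 1 and 2, 330 without the 5 arrays, and 343 to 698 when 1 array was left out. The count of 2128 at 6 months ranged from 1890 to 2162 when 1 array was left out. Both settings that leave out Largemyd arrays 1 and 2 together were chosen after seeing the data, and the cause of these changes was not tested.

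Of 134 genes of the text that were called, 110 kept their call in every setting, 24 lost it in at least 1, and 8 lost it when a single array was left out. Of the 25 that were not called, 8 passed in at least 1 setting. Ppargc1a turned from 0.04 to -0.80 (adjusted p = 0.047, limma) without Largemyd arrays 1 and 2, and to -0.84 (adjusted p = 0.042) without these and C57Bl/6 array 2. No paired analysis was possible because no Largemyd animal shares the number in its title with a C57Bl/6 or Dmdmdx animal of the same age. The number of arrays, 5 per group, limits the precision, the arrays that stand apart are given beside the gene groups they move with, and differences of genes near the bottom of the scale may be understated.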
